A study of Mus musculus with 12 samples.

Results

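The 33 genes described here mark cell lineages other than the epithelial one: 12 are fibroblast genes, 3 smooth muscle genes, 10 immune genes and 8 endothelial genes. They serve as a reference set, at which an epithelial culture would carry little active chromatin if it held few cells of those lineages. Acetylation of lysine 27 on histone H3 (H3K27ac) was measured around them in mouse intestinal organoids, which are epithelial structures grown from crypts. An interval of the SEACR peak caller was counted for a gene when that gene's span was the nearest protein-coding span, at 0 to 50000 bp. By this rule 28 of the 33 genes had an interval, and they held 237 of the 166517 SEACR intervals. Among all 21896 protein-coding genes 17393 had one. The genes were chosen for their lineage and not by their values, but with earlier results of these data known.

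The series holds 12 CUT&RUN libraries, a method in which a nuclease tied to an antibody releases the DNA beside the marked nucleosomes. There were 6 groups of 2 libraries. Wild-type (WT) organoids received vehicle, arachidonic acid (AA) at 25 µM or prostaglandin E2 (PGE2) at 50 nM, and Ptger4 knockout (KO) organoids received the same 3 treatments. Ptger4 encodes EP4, a receptor for PGE2, and AA is the fatty acid that cells convert to prostaglandins. All groups were crypt-derived cultures in Matrigel with EGF, Noggin, R-spondin and the GSK3 inhibitor CHIR-99021 in the medium. The sample characteristics give day 3 and the treatment protocol gives day 6, and the design text names a dimethyl form of PGE2. The sources used here do not give the age of the mice or how the knockout was made. Because the labels name no culture or animal for a library, p-values measure only the spread between libraries, which may be technical.

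The value analysed is the deposited peak score, a signal per interval and library. Whether it is a mean coverage per base could not be told, and the sequencing depth behind it is unknown. Mean scores of intervals spanned little, from 0.0602 at the 1st percentile to 0.227 at the 99th. KO PGE2 replicate 2 stood below the other libraries, with a median over all genes of 0.114 against 0.151 to 0.173. For the comparisons that use it, some values without it are given too. The strongest interval at Ptger4 (chromosome 15, 5243427 to 5245375) scored 0.198 ± 0.0307 (SD, n = 6) in WT and 0.161 ± 0.0693 (n = 6) in KO libraries. A histone mark there does not test the deletion. The genotype of the files' columns was read from their names, where EP4KO stands for the Ptger4 knockout.

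H3K27ac marks nucleosomes at active promoters and enhancers, where it is placed by the acetyltransferases CBP and p300. Genes of other lineages usually lack the mark at their start sites, and those with CpG-dense promoters are often held by Polycomb complexes, which place methylation on the same lysine. Fibroblasts, smooth muscle, blood-derived cells and vessels lie under the epithelium in the living gut, and lymphocytes also lie within it. Isolating crypts is meant to leave most of these cells behind.

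The mark covered fewer start sites of these genes than of genes in general. RefSeq promoter windows of GRCm38.p6, the assembly that mm10 is made from, run from 250 bases before to 50 bases after a start and were at hand for 18 of the 33 genes, as 22 windows. Of these, 4 windows (18.2%) from 3 genes overlapped a SEACR interval, against 50.0% of all 21044 windows. Of the windows of epithelial genes 15 of 16 overlapped one, of housekeeping genes 12 of 13, and of the 948 windows of olfactory receptor genes, which are mostly confined to the nose in expression, 82 (8.65%). The dinucleotide CG was counted in each window, and it reads the same on both strands. Windows with 10 or more CG made up 57.3% of all windows, and 64.7% of those overlapped an interval. Among the lineage genes 7 windows were that CG-dense and 0 overlapped one, namely those of Col1a2, Des, Erg, Flt4, Kdr, Twist1 and Twist2. Below 10 CG, 4 of 15 windows overlapped an interval (26.7%), near the 30.2% of all such windows.

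**Figure D1:**
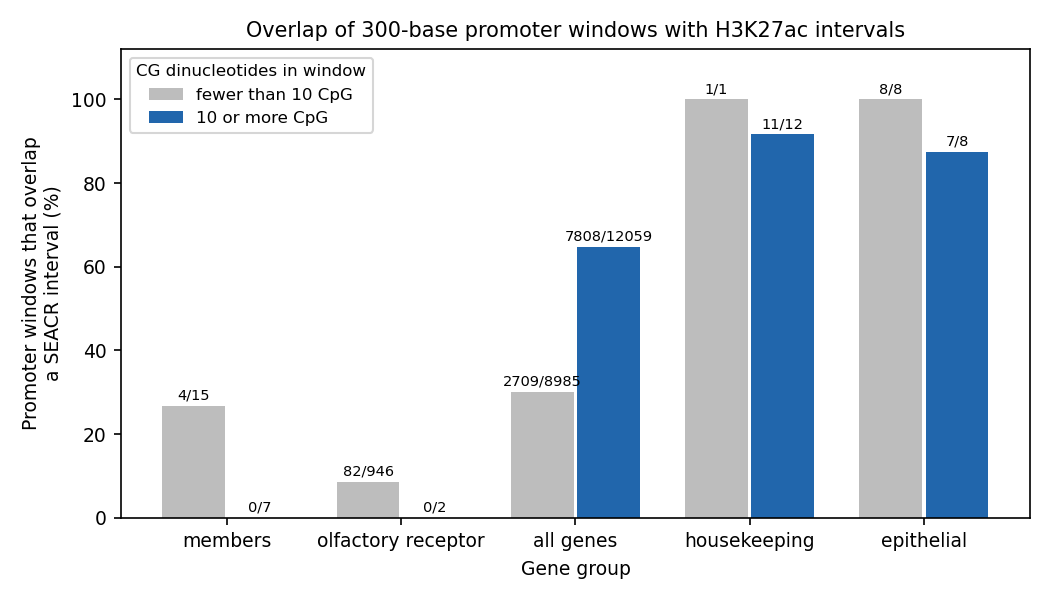
Share of RefSeq promoter windows (300 bases) that overlapped a SEACR interval, in percent from 0, for the lineage genes and the comparison lists, split at 10 CG per window. The bar of the lineage genes is at 0 for CG-dense windows, where all genes together reach 64.7%.

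An overlapped window of each of Tek, Ptprc and Erg and 1 window without an interval are shown, with their CG content. Of the 2 overlapped windows of Ptprc, which share bases, the one with more CG is shown. CG is in capitals, each sequence is given 5′ to 3′ on the strand of the gene, and the Twist1 window was chosen after its values were seen, as the one with most CG (27).
Tek, chr4:94739039-94739338, plus strand, 3 CG, in an interval: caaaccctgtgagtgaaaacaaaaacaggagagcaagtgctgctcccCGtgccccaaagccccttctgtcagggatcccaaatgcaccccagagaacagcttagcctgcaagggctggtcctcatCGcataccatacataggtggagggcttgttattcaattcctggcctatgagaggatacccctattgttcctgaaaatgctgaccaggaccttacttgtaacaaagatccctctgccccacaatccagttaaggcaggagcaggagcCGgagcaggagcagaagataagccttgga
Ptprc, chr1:138175256-138175555, minus strand, 4 CG, in an interval: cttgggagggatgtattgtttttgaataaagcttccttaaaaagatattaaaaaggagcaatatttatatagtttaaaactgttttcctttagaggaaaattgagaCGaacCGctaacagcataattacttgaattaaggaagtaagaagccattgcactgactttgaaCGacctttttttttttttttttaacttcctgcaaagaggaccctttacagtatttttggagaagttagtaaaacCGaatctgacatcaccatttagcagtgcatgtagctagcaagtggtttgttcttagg
Erg, chr16:95530316-95530615, minus strand, 2 CG, in an interval: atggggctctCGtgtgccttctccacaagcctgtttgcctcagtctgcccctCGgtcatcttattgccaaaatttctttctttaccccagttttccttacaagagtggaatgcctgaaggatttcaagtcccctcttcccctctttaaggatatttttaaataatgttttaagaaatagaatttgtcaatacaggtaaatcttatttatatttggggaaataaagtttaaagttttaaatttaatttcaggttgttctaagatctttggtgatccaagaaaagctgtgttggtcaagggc
Twist1, chr12:33957421-33957720, plus strand, 27 CG, in no interval: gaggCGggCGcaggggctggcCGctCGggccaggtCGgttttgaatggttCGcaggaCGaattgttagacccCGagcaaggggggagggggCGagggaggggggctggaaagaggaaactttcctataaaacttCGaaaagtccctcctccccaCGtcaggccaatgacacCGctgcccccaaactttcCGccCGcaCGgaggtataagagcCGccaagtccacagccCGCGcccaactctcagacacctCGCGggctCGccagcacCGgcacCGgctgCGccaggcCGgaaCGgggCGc

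Tek encodes the angiopoietin receptor TIE2 of endothelial cells. The interval over its start scored from 0.112 (KO PGE2 replicate 2) to 0.230 (WT PGE2 replicate 2), with a mean of 0.160 ± 0.0326 (SD, n = 12). Ptprc encodes CD45, the phosphatase on all white blood cells, and the interval over its start had a mean of 0.106 ± 0.0333. Erg, an ETS factor of endothelium, has 3 windows, and only the one with 2 CG lay in an interval, of mean 0.0918 ± 0.0487, whereas its window with 16 CG did not. The median over all overlapped windows of the genome was 0.163, so Tek was near it and the others were below.

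Either end of the gene span gave the same picture for all 33 genes, whether or not a window was at hand. An end lay inside an interval for 6 of the 33 (18.2%), against 51.3% of all genes, 19 of 20 epithelial genes and 10.1% of olfactory receptor genes. The 6 were the B-cell gene Ms4a1 (CD20), the pericyte and fibroblast receptor gene Pdgfrb, the endothelial genes Pecam1 (CD31), Tek and Vwf (von Willebrand factor), and Ptprc. Intervals covered a median of 8.63% of the span of a lineage gene, 15.5% of that of any gene and 62.6% of that of an epithelial gene. The spans of 10 of the 33 (30.3%) were not touched by an interval, near the 25.9% of all genes.

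Having an interval at all was no rarer among the lineage genes. Of the 33, 84.8% had one within 50000 bp, against 79.4% of the other genes and 40.2% of 1110 olfactory receptor genes. The 5 without were the collagen genes Col1a2 and Col3a1, the matrix proteoglycan gene Lum, the mesenchymal factor gene Twist1 and the B-cell receptor gene Cd79a. Of the 237 intervals 136 lay within the gene span and 101 outside it. The lineage genes are long, with a median of 35926 bp against 17149 bp for all genes, and the nearest-gene rule gives no proof that an interval acts on its gene.

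The strongest interval of each gene, by its mean over the 12 libraries, then stood for the gene. The median score of the 28 genes was 0.126, against 0.156 for all genes, 0.180 for housekeeping genes, 0.233 for epithelial genes and 0.104 for olfactory receptor genes. Of the 28, 20 lay below the median of all genes and 0 in the top decile, where 14 of 20 epithelial genes stood. The weakest of the 20 epithelial genes, Krt20 (0.196), a keratin of mature surface cells, stood above 24 of the 28, and the strongest, the tight junction gene Tjp1, had 0.299. As a set, the lineage genes were therefore low in this mark. By the strongest interval the 8 endothelial genes had a median of 0.167, above the 0.156 of all genes, but 4 of the 8 lay below 0.156. With the median over all intervals of a gene, the endothelial genes stood at 0.110 and all genes at 0.117. Most start sites with a window lay in no interval, while the strongest intervals mostly scored low but not at 0.

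The lower level of the set was seen in every library. The median over the lineage genes ranged from 0.0835 (KO PGE2 replicate 2) to 0.143 (KO AA replicate 1), and the median over the other genes from 0.114 to 0.173. The log2 ratio of the lineage median to that of the other genes was negative in 12 of 12 libraries, from -0.51 in KO vehicle replicate 2 to -0.07 in KO AA replicate 1, with a mean of -0.29 ± 0.126 (SD, n = 12). Without KO PGE2 replicate 2 it was -0.28. In WT libraries it was -0.29 ± 0.0875 (n = 6) and in KO libraries -0.29 ± 0.165 (n = 6), so the genotypes did not differ by more than the spread. By group, the mean ratio was -0.30 ± 0.190 (SD, n = 2) in WT vehicle, -0.29 ± 0.00044 in WT AA and -0.27 ± 0.0300 in WT PGE2. In KO organoids it was -0.42 ± 0.136 with vehicle, -0.13 ± 0.0825 with AA and -0.33 ± 0.164 with PGE2. The libraries of WT vehicle differed from each other by more than the WT groups did. In KO the AA libraries were at -0.07 and -0.19, the vehicle libraries at -0.32 and -0.51 and the PGE2 libraries at -0.21 and -0.45. Differences between treatments in this ratio were not tested.

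The size of the gap for the lineage genes as a set depended on the interval chosen, but not its sign. It was -0.19 with the median over all intervals of a gene, -0.40 with the strongest interval inside the span (23 genes) and -0.35 with the strongest within 2000 bp of a gene end (15 genes). Over all 237 intervals the median was 0.111 against 0.118 for all intervals, 137 (57.8%) lay below the latter, and 0 exceeded the 99th percentile. By lineage, the median was 0.124 for 109 endothelial and 0.122 for 22 muscle intervals, above that of all intervals. It was 0.106 for 65 immune and 0.0984 for 41 fibroblast intervals. Genes with more intervals had a higher strongest interval, as a description across genes: Spearman's rho was 0.741 over the 28 and 0.510 over all genes.

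Endothelial genes had a median of 0.167 over 8 genes by the strongest interval. This was above the other lineages and above the 0.156 of all genes, and 4 of the 8 stood above the median of all genes. The endothelial genes also had more intervals, a median of 14.5 per gene. With the median over all intervals of a gene they stood at 0.110, muscle genes at 0.111 and all genes at 0.117. Sox17, a factor of arterial endothelium and of embryonic endoderm, led all the lineage genes. Its strongest interval (chromosome 1, 4531410 to 4542027) scored from 0.127 (KO PGE2 replicate 2) through a median of 0.214 to 0.279 (KO vehicle replicate 1), with a mean of 0.214 ± 0.0394 (SD, n = 12). That interval is 10617 bp wide and lies 33984 bp outside the gene, and 0 of the 12 intervals of Sox17 touched the span. Tek came next: the interval 3002 bp before its span (chromosome 4, 94732051 to 94736084) ranged from 0.0976 (KO PGE2 replicate 2) through 0.223 to 0.272 (WT PGE2 replicate 2), mean 0.210 ± 0.0545. Vwf had its strongest interval inside the gene (chromosome 6, 125572005 to 125576411), from 0.135 through 0.196 to 0.257, mean 0.196 ± 0.0315. Pecam1, the adhesion molecule of endothelial junctions, had a mean of 0.184 ± 0.0454 at an interval 9849 bp outside its span. Erg (0.151 ± 0.0564) was followed by the vascular growth factor receptor genes Kdr (0.103 ± 0.0678) and Flt4 (0.0842 ± 0.0563) and by the cadherin gene Cdh5 (0.0967 ± 0.0370). Thus the leading genes of this lineage scored about as high as Krt20, while Flt4 was at percentile 6.15 of all genes.

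Of 9 immune genes with an interval 7 lay below the median of all genes, and the lineage median was 0.127. Itgam, which encodes the CD11b integrin of myeloid cells, led with an interval 2936 bp outside its span (chromosome 7, 128055526 to 128059704), from 0.120 (KO PGE2 replicate 2) through 0.206 to 0.295 (WT vehicle replicate 2), mean 0.207 ± 0.0480. Ptprc followed at 0.159 ± 0.0586, and its libraries ran from 0.0736 (KO PGE2 replicate 2) to 0.283 (KO PGE2 replicate 1), so the extremes were the libraries of 1 group. The B-cell gene Ms4a1 had a mean of 0.155 ± 0.0316, and intervals covered 86.4% of its span of 16471 bp. The T-cell co-receptor genes Cd8a (0.129 ± 0.0358) and Cd4 (0.0897 ± 0.0579) had 1 interval each. Csf1r, the receptor gene of macrophage growth factor, scored 0.127 ± 0.0476, the myeloid factor gene Spi1 0.124 ± 0.0547, the macrophage gene Adgre1 (F4/80) 0.113 ± 0.0332 and the T-cell receptor subunit gene Cd3e 0.102 ± 0.0336.

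Smooth muscle had only 3 genes. Acta2, which encodes smooth muscle actin, had its strongest interval 11000 bp outside the span (chromosome 19, 34266585 to 34272103), and the next gene, Fas, lies 18544 bp from that interval. Its score ran from 0.124 (KO PGE2 replicate 2) through 0.198 to 0.246 (WT AA replicate 1), mean 0.195 ± 0.0359. Myh11, the smooth muscle myosin heavy chain gene, had 0.141 ± 0.0458 inside its span. Des, the gene of the intermediate filament desmin, had 0.0951 ± 0.0339 at its 1 interval, 6768 bp outside the span.

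Fibroblast genes were the lowest lineage, with a median of 0.123 over the 8 of 12 that had an interval, and 7 of those 8 lay below the median of all genes. Pdgfra, a growth factor receptor gene of gut mesenchyme, was the exception, with 0.169 ± 0.0320 at an interval (chromosome 5, 75247545 to 75256034) that lies 49339 bp from its span, just inside the limit of the rule. Pdgfrb (0.136 ± 0.0603) was next. The mesenchymal factor gene Twist2 scored 0.125 ± 0.0548, the collagen gene Col1a1 0.124 ± 0.0402, the surface antigen gene Thy1 0.123 ± 0.0495, the proteoglycan gene Dcn 0.107 ± 0.0490 and Col6a1 0.0984 ± 0.0512. Postn, which encodes the matrix protein periostin, was the lowest of the 28, from 0.0158 (WT PGE2 replicate 1) through 0.0527 to 0.176 (WT vehicle replicate 1), mean 0.0655 ± 0.0457.

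**Figure D2:**
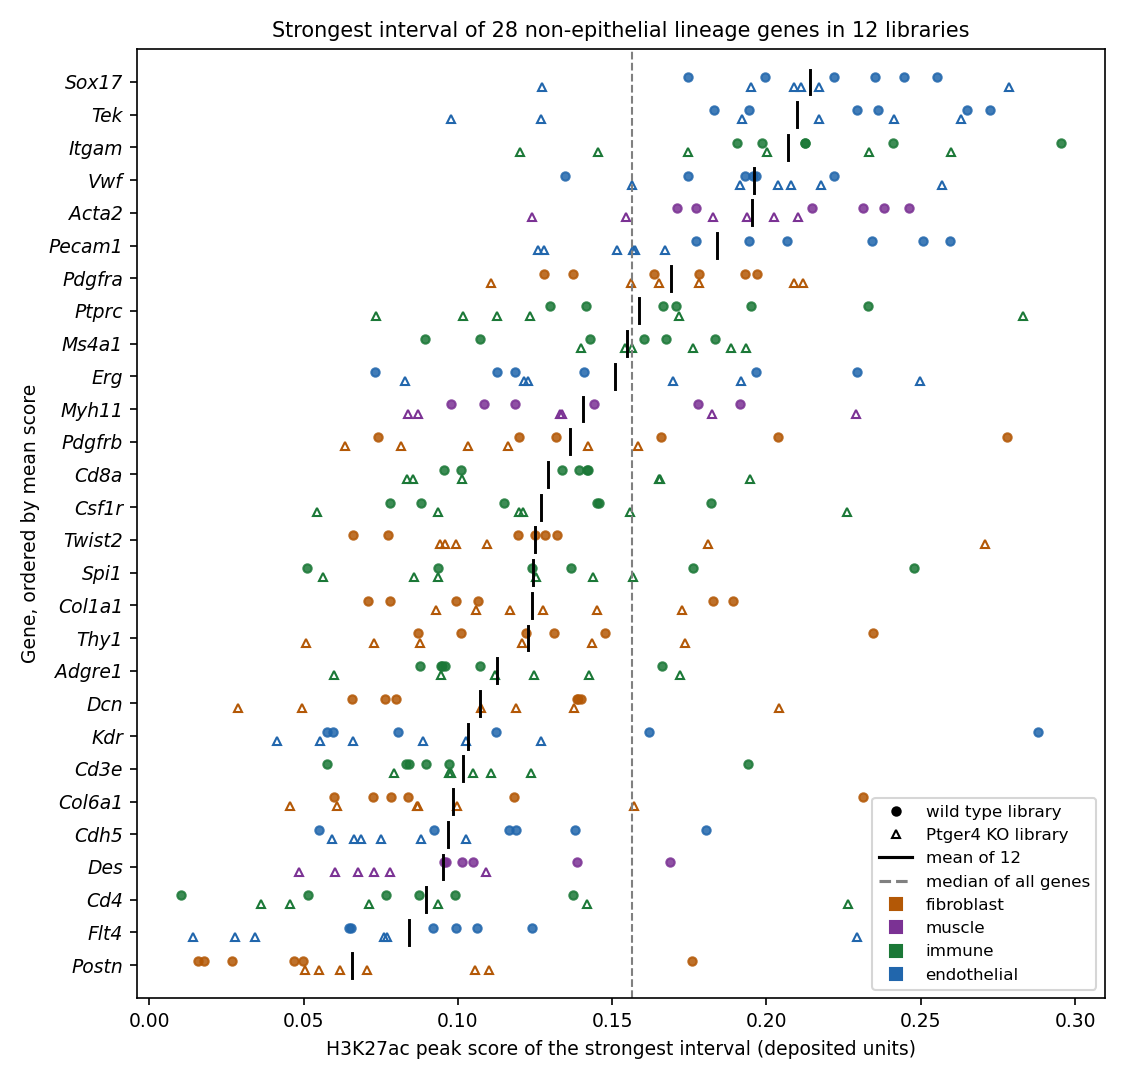
Score of the strongest interval (deposited peak score) of each of the 28 lineage genes with an interval, 1 point per library, with the mean over 12 libraries, in order of the mean. From Sox17 (0.214) to Postn (0.0655) the points of neighbours overlap along the whole order.

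In this order 0 of the 27 gaps between neighbours exceeded the SD over libraries, so the order of adjacent genes is not resolved. The strongest intervals of 17 of the 28 genes lay outside the gene span, and 6 of them beyond 30000 bp.

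Other genes of the same lineages, which are not among the 33, gave like levels. Other fibroblast genes had a median of 0.103 over 13 genes, between Prrx1 (0.172), a mesenchymal factor gene, and Foxl1 (0.0639), a factor of subepithelial mesenchyme. Other smooth muscle and pericyte genes had 0.144 over 9, between Synpo2 (0.209) and the smooth muscle coactivator gene Myocd (0.0725). Other immune genes had 0.127 over 16, between Cd247 (0.201), a T-cell receptor subunit gene, and the B-cell gene Cd22 (0.0917). Other endothelial genes had 0.160 over 10, between Eng (0.218), which encodes endoglin, and the nitric oxide synthase gene Nos3 (0.0742). By the strongest interval, fibroblast genes were the lowest and endothelial genes the highest lineage in both sets of lists, and these differences were not tested. With the median over all intervals of a gene, the other muscle genes (0.116) stood above the other endothelial genes (0.115), and with the strongest interval inside the span they stood at 0.137 and 0.117. The other lists held 58 fibroblast, 64 muscle, 76 immune and 48 endothelial intervals, and 0 of them passed in limma in any of the 7 comparisons given next. A low score is the sum over all cells of a culture, and fewer cells of a type cannot be told apart from less of the mark per cell.

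The comparisons by genotype and treatment were made with limma on log2(score + 0.0579), over all 166471 intervals tested, and all 237 lineage intervals passed the filter on low scores. In none of the 7 comparisons did a lineage interval pass at an adjusted p of 0.05. The share of all intervals that passed was 0% in 6 of the comparisons and 0.0427% (71 intervals) between genotypes. The latter rose to 149 intervals without KO PGE2 replicate 2 and to 1482 without replicate 1, and without replicate 1 there were 175 for PGE2 in KO and 30 for the PGE2 interaction, with 0 lineage intervals among them each time. Because none passed, the 3 genes with the smallest p are given for each comparison, with their values and without a direction being claimed. Changes are in log2 units, positive where the first-named group is higher.

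**Figure D3:**
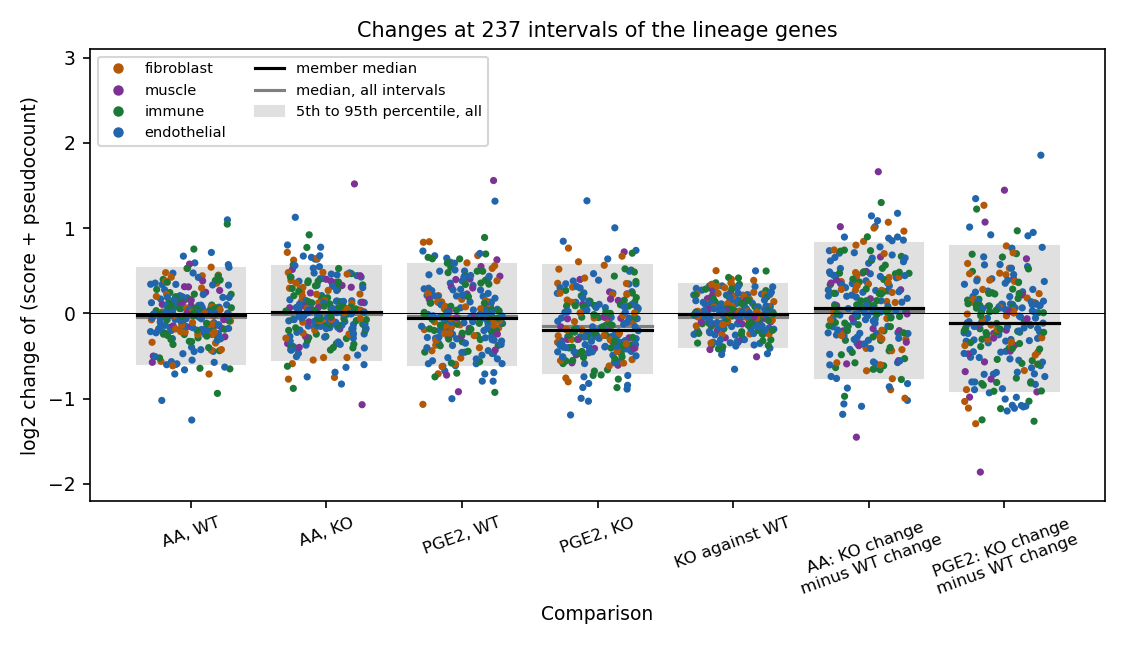
Log2 change in score of each of the 237 lineage intervals in the 7 comparisons, with the median, beside the spread of all tested intervals. The lineage intervals are spread about as widely as all intervals, and 0 passed the adjusted threshold.

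The effect of AA in WT organoids was asked first. At an unadjusted p under 0.05 there were 11 of 237 lineage intervals (4.64%), near the 4.56% of all intervals, and the median change was -0.024 against -0.038. At Erg (chromosome 16, 95605565 to 95607276) the AA libraries scored 0.00745 and 0.0664 and the vehicle libraries 0.170 and 0.144, a difference of -1.25 ± 0.40 (SE, limma). At Tek (chromosome 4, 94867623 to 94868614) they scored 0.280 and 0.126 against 0.0886 and 0.0346, a difference of 1.10 ± 0.35. At Vwf (chromosome 6, 125659850 to 125661087) they scored 0.0910 and 0.0255 against 0.287 and 0.0908, a difference of -1.02 ± 0.38. The groups overlapped at Vwf, and the limma adjusted p was 1.00 at each. Single libraries set the sizes: without WT AA replicate 1 the differences at Erg and Tek were -0.79 and 0.66. At Vwf it was -0.42 without WT vehicle replicate 1, -1.63 without WT vehicle replicate 2 and -0.60 without WT AA replicate 2.

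PGE2 in WT organoids gave 17 lineage intervals (7.17%) at an unadjusted p under 0.05, against 5.8% of all intervals, with a median change of -0.051 against -0.032. Myh11 had the smallest p at an interval inside the gene (chromosome 16, 14231214 to 14232000), where the PGE2 libraries scored 0.158 and 0.341 and the vehicle libraries 0.0335 and 0.0507. That is a difference of 1.56 ± 0.39 (SE; limma adjusted p = 0.713). Tek (chromosome 4, 94857821 to 94859267) scored 0.245 and 0.273 with PGE2 and 0.0834 and 0.0565 with vehicle, a difference of 1.32 ± 0.37 (limma adjusted p = 0.790). Itgam (chromosome 7, 128044342 to 128045389) scored 0.0723 and 0.0554 against 0.191 and 0.156, a difference of -0.93 ± 0.27 (limma adjusted p = 0.790). These 3 intervals were picked by the smallest p, so how far their groups lie apart is no further support.

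For AA in KO organoids, 9 lineage intervals (3.8%) had an unadjusted p under 0.05, against 3.74% of all intervals, and the median change was 0.018 against -0.0084. Another interval inside Myh11 (chromosome 16, 14276495 to 14277974) scored 0.160 and 0.190 with AA and 0.0243 and 0.0222 with vehicle, a difference of 1.52 ± 0.39. Sox17 (chromosome 1, 4462049 to 4464166) scored 0.135 and 0.252 against 0.0804 and 0.0842, a difference of 0.80 ± 0.30. Erg (chromosome 16, 95504125 to 95505230) scored 0.146 and 0.0554 against 0.0258 and 0, a difference of 1.13 ± 0.42. All 3 had a limma adjusted p of 1.00, and they too were picked by the smallest p. Sox17 was at 0.46 without KO AA replicate 2, and Erg at 0.70 without KO AA replicate 1. The WT vehicle libraries scored 0.171 and 0.108 at this Erg interval and 0.142 and 0.0841 at this Myh11 interval, so the KO vehicle libraries were the low ones among the vehicle samples.

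PGE2 in KO organoids gave more intervals at an unadjusted p under 0.05: 26 of the 237 (11.0%), against 8.68% of all intervals. Of these, 21 were lower (8.86%), against 6.85% of all intervals. Without KO PGE2 replicate 2 the 26 became 23. The median change of the lineage intervals was -0.19 and that of all intervals -0.15. Without KO PGE2 replicate 2 these medians were -0.11 and -0.060, without replicate 1 they were -0.31 and -0.26, and after centring on each library's median they were -0.059 and -0.014. The smallest p of all comparisons was at the Tek interval before the gene (chromosome 4, 94732051 to 94736084). It scored 0.127 and 0.0976 with PGE2 and 0.263 and 0.241 with vehicle, and all other libraries lay between 0.183 and 0.272. The difference was -0.87 ± 0.20 (SE; limma adjusted p = 0.364, 0.0503 to 0.771 over the alternatives). It was -0.75 without KO PGE2 replicate 2, and the lowest adjusted p came without replicate 1. At Ms4a1 (chromosome 19, 11241384 to 11243067) the PGE2 libraries scored 0.0449 and 0.110 against 0.214 and 0.154 with vehicle, a difference of -0.87 ± 0.27 (limma adjusted p = 0.477). How often both KO PGE2 libraries lie below the rest was not counted over all intervals, and replicate 2 was low in general. At the Erg interval named above for AA, the PGE2 libraries scored 0.216 and 0.0528, a difference of 1.32 ± 0.42 (limma adjusted p = 0.478), and this comparison shares its vehicle libraries with that of AA. Without KO PGE2 replicate 2 the differences were -1.22 at Ms4a1 and 1.97 at Erg, and without replicate 1 they were -0.52 and 0.67.

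**Figure D4:**
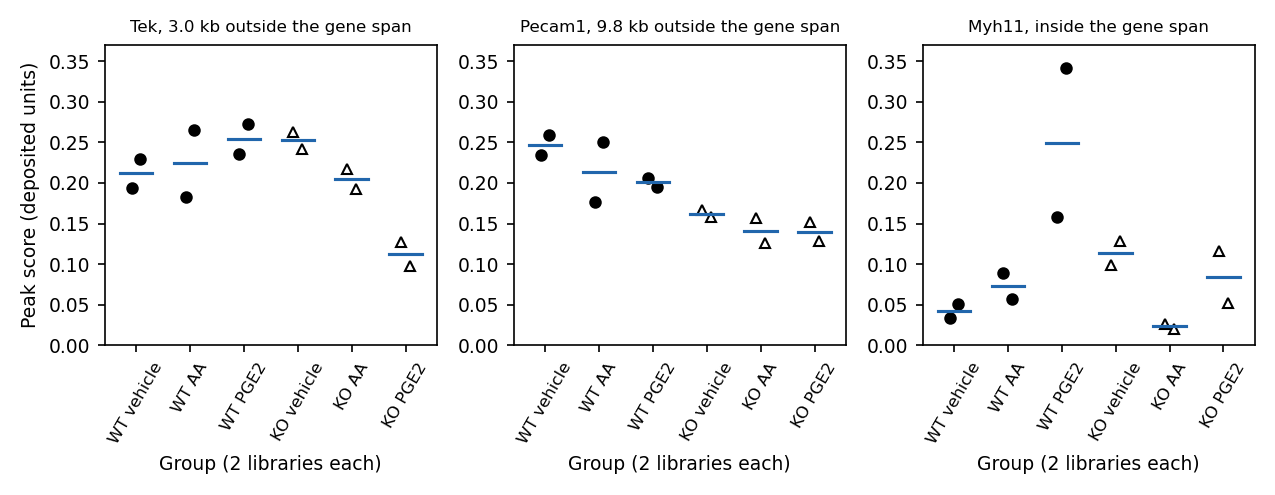
Score in each library by genotype and treatment at 3 named intervals, of Tek, Pecam1 and Myh11. The KO PGE2 libraries of Tek scored 0.127 and 0.0976. The 6 KO libraries of Pecam1 lie below the 6 WT libraries, as in 0.559% of all intervals. Each interval was picked by the smallest p in a comparison.

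Genotype was compared over the 3 treatments, 6 KO against 6 WT libraries. In this contrast 16 lineage intervals (6.75%) had an unadjusted p under 0.05, against 9.11% of all intervals, and 120 of 237 (50.6%) were lower in KO, against 58.4% of all intervals. The median change was -0.0042 for the lineage intervals, -0.046 for all and -0.20 for the 182 intervals of epithelial genes, of which 162 were lower in KO. Of the epithelial intervals 0 passed, and 61 had an unadjusted p under 0.05, all lower. Intervals of housekeeping genes were also lower in KO, with a median of -0.17 and 46 of 57 lower. Of these 57, 0 passed, and 10 lower and 1 higher had an unadjusted p under 0.05. Fibroblast intervals had a median of 0.081 (28 of 41 higher in KO), muscle intervals -0.051 (8 of 22), immune intervals -0.0084 (31 of 65) and endothelial intervals -0.021 (50 of 109), and whether these lists differ was not tested. All these values include KO PGE2 replicate 2, where the median of the epithelial genes was the lowest of the 12 libraries (0.142). When 1 library was left out, the median change of the lineage intervals ran from -0.032 to 0.011.

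At Pecam1 (chromosome 11, 106640444 to 106644364) the WT libraries scored 0.177 to 0.259 with a mean of 0.220, and the KO libraries 0.126 to 0.167 with a mean of 0.148. This was the 1 lineage interval where all KO libraries were lower than all WT libraries, which held for 0.559% of all intervals. The difference was -0.43 ± 0.12 (SE; limma adjusted p = 0.237, 0.0573 to 0.559 over the alternatives, the lowest without KO PGE2 replicate 1). The 1 interval with all KO libraries higher, as in 0.125% of all intervals, lay at Erg (chromosome 16, 95622752 to 95625308), with 0.152 to 0.205 in KO and 0.103 to 0.151 in WT and a limma adjusted p of 0.547. It was outside the rule for named intervals and was chosen after its values were seen. Vwf (chromosome 6, 125684632 to 125686047) had a KO range of 0.0189 (KO PGE2 replicate 1) to 0.0944 and a WT range of 0.0747 to 0.220, a difference of -0.66 ± 0.21 (limma adjusted p = 0.319). Tek (chromosome 4, 94778803 to 94779649) ranged from 0.0950 to 0.352 in KO and from 0.0798 to 0.143 in WT, a difference of 0.50 ± 0.19 (limma adjusted p = 0.407), and the groups overlapped. Without KO PGE2 replicate 2 the differences were -0.40 at Pecam1, -0.79 at Vwf and 0.65 at Tek, and 19 lineage intervals had an unadjusted p under 0.05.

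With 1 value per gene, a width-weighted mean over its intervals, 0 of the 28 genes passed in any comparison among 17387 genes. The smallest p was that of Des between genotypes, -0.42 ± 0.11 (SE; limma adjusted p = 0.133, unadjusted 0.0036). Des has only 1 interval, 6768 bp outside its span, so this value rests on that interval alone, and KO PGE2 replicate 2 is included. Its WT libraries scored 0.0955 to 0.169 and its KO libraries 0.0483 to 0.109, and they overlapped.

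Whether the treatments differed by genotype was tested as an interaction, the change in KO minus the change in WT. For AA, 8 lineage intervals (3.38%) had an unadjusted p under 0.05 against 4.14% of all, and the median was 0.057 against 0.030. The smallest p was at the Myh11 interval named for AA in KO (1.66 ± 0.56), where the WT AA libraries scored 0.0878 and 0.102. Pecam1 (chromosome 11, 106719176 to 106721161) followed at -1.06 ± 0.38, with 0.216 and 0.203 in WT AA, 0.118 and 0.121 in WT vehicle, 0.108 and 0.127 in KO AA, and 0.247 and 0.136 in KO vehicle. Sox17 (chromosome 1, 4513862 to 4515441) was at 1.02 ± 0.44, with 0.0753 and 0.118 in WT AA, 0.216 and 0.132 in WT vehicle, 0.174 and 0.198 in KO AA, and 0.154 and 0.0939 in KO vehicle. All 3 had a limma adjusted p of 1.00.

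For PGE2, 27 lineage intervals (11.4%) had an unadjusted p under 0.05 against 6.42% of all intervals, and the median was -0.11 for both. Leaving out KO PGE2 replicate 2 moved the median of all intervals to -0.025 and that of the lineage intervals to -0.099, and the count stayed at 27. The 237 intervals belong to 28 genes, with 26 at Vwf, 24 at Erg and 21 at Tek. Among the other genes of these lineages, 0 of 48 endothelial intervals had an unadjusted p under 0.05. Of 58 fibroblast intervals 1 higher and 1 lower did, of 76 immune intervals 1 and 5, and of 64 muscle intervals 1 and 6. Whether the lists differ was not tested. The Tek interval before the gene had the smallest p, -1.08 ± 0.28 (SE; limma adjusted p = 0.622), and its WT PGE2 libraries scored 0.236 and 0.272 against 0.194 and 0.229 with vehicle. The Myh11 interval named for PGE2 in WT was at -1.86 ± 0.56 (limma adjusted p = 0.660), with 0.116 and 0.0520 in KO PGE2 and 0.0986 and 0.129 in KO vehicle. The Erg interval named for KO was at 1.86 ± 0.59 (limma adjusted p = 0.702), with WT PGE2 libraries at 0.0928 and 0.0620. Without KO PGE2 replicate 2 the differences were -0.96 at Tek, -1.53 at Myh11 and 2.51 at Erg, and Erg was at 1.20 without replicate 1. These intervals are among those of the single treatment comparisons, which share libraries with the interaction.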

How the data were processed

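H3K27ac CUT&RUN was profiled in 12 libraries, 6 groups of 2. The authors deposited a peak score (a signal per interval and library). Per the submitters' processing notes SEACR, MACS2 and mm10 were used; the sources used here do not give the aligner, how scores were normalized or whether coordinates count from 0 or 1. Of MACS2 intervals inside SEACR intervals, 100% of 8412 pairs had an area (score times width) no larger than the SEACR area within 1%. This check cannot tell a mean coverage per base from a summed signal. No depth, and so no counting interval, could be given.

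Each SEACR interval went to the GRCm38.p6 protein-coding gene whose span was nearest, within 50000 bp. The strongest interval by mean score represented a gene. Scores were tested as log2(score + 0.0579), the 10th percentile of non-zero scores, in intervals above it in at least 2 libraries, with limma 3.58.1 in R 4.3.3 (6 groups in one model, trend, two-sided; 6 residual and 20.1 prior degrees of freedom), with Benjamini-Hochberg adjustment over all intervals and a threshold of 0.05. The fit was tested on simulated data in which changes were placed only between genotypes. Recovery of changes in the treatment comparisons and the interactions was not tested. The members and the lists were chosen with earlier results of these data known. In each comparison the lineage intervals that passed, or else the 3 with the smallest p from different genes, were named; in other lists the highest and lowest genes, of which 1 is not reported here; promoters were those overlapping intervals of highest and lowest score, up to 2 genes each. Alternatives were other pseudocounts, filters, scalings, variance models, units, a replicate block and leaving out libraries.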

Additional observations from a re-analysis of the deposited data

Results flagged for a closer look

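Values given by genotype were checked for a single library far from the other 5, in 14 sets of 6 libraries, and 2 were found; chance gives about 1 in 20. At the Ptger4 interval KO vehicle replicate 2 scored 0.2997, while the other KO libraries scored 0.117 to 0.158. At the Vwf interval (chromosome 6, 125684632 to 125686047) KO PGE2 replicate 1 scored 0.0189, while the other KO libraries scored 0.0666 to 0.0944. Both sets mix the 3 treatments.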

How the results depend on the processing

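No lineage interval passed in any of the 7 comparisons under the 20 alternatives tried for each, and the 21 named intervals kept their direction in 399 of 399 refits without passing (limma adjusted p 0.0503 to 1.00). These intervals were picked by the smallest p in the same libraries, so a kept direction is no further support. Their sizes moved with the pseudocount: AA at Erg in WT was -2.02 with the smaller and -0.54 with the larger, AA at Myh11 in KO 2.33 and 0.67, and the PGE2 interaction at Myh11 -2.60 and -0.92. The level of the lineage genes as a set stayed below that of other genes, at -0.40 to -0.19 over 16 alternatives. For PGE2 in KO the median change was -0.27 with a pseudocount 4 times smaller, -0.092 with one 4 times larger, -0.059 after median centring, -0.092 after quantile normalization and -0.31 to -0.11 when a library was left out (KO PGE2 replicate 1 or 2). For the PGE2 interaction it was -0.036 with the larger pseudocount, -0.010 after median centring, -0.013 after quantile normalization and -0.18 to -0.083 when a library was left out. For PGE2 in WT it was 0.013 with 1 value per gene. The cause was not tested.

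Replicate numbers share only a label: deviations of same-numbered libraries correlated at -0.024 to 0.0097 over 15 pairs of groups. With the replicate number as a block, 0 lineage intervals passed in each comparison, as without it. MACS2 had 0 lineage intervals, so that alternative gave no value. Where a group kept 1 library, that library was assumed to vary like the other groups. The depth behind the signal is unknown.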

Other observations

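Neural and glial genes, a lineage outside the 33, were also low by the strongest interval of each gene. Of 10 such genes 8 had an interval, with a median score of 0.112, and the synaptic gene Snap25 was the highest (0.180). Over all their 54 intervals, however, the median was 0.121, against 0.118 for all intervals. Ends of 3 of the 10 genes lay inside an interval (30.0%), against 51.3% of all genes. Of 54 intervals of these genes 0 passed in limma in any of the 7 comparisons. The unadjusted p was under 0.05 for 8 of the 54 with PGE2 in KO, 3 between genotypes and 2 with AA in WT. The shares among all tested intervals were 8.68%, 9.11% and 4.56%. The PGE2 interaction had 2 such intervals of the 54 and the AA interaction 1, against 6.42% and 4.14% of all intervals. With PGE2 in WT and with AA in KO there were 0 of the 54, against 5.8% and 3.74% of all intervals.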
